A study of Mus musculus with 8 samples.

Results

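The 36 genes described here encode enzymes and regulators of glycolysis, the pentose phosphate pathway and glycogen metabolism. They were selected by symbol from a table of 21879 genes, and all 36 symbols had a row. Messenger RNA had been sequenced after poly(A) selection in TCMK-1 cells, a virus-transformed mouse kidney epithelial line. Of the 8 libraries, 4 came from cells expressing a control shRNA and 4 from cells whose shRNA targets smgGDS. This protein, encoded by Rap1gds1, promotes nucleotide exchange on several small GTPases. Cells of both groups had received 20 µM cisplatin, a DNA-crosslinking drug that injures kidney tubules. These 8 libraries are the whole series, which holds none from untreated cells, and every value is from drug-treated cells. Nothing in the labels tells whether libraries of 1 group are separate cultures or 1 line sampled repeatedly. The p-values measure only how far these libraries spread, and that spread may be technical.

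Glycolysis converts glucose to pyruvate in a chain of cytosolic reactions, several of which are served by isozymes encoded by separate genes. The pentose phosphate pathway branches off after the hexokinase step and supplies NADPH and ribose phosphate, and glycogen is made from and returned to the same pool through glucose phosphates that phosphoglucomutase interconverts. In the kidney the proximal tubule relies mainly on oxidation of fatty acids and makes glucose, while cultured tubular lines generally run glycolysis.

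Of the 36 members, 35 had enough counts to be tested, and 4 of these passed the threshold, an adjusted p under 0.05 by the edgeR quasi-likelihood test over all 11576 tested genes. That is 11.4% of the tested members, against 20.2% of all tested genes (11.1% higher and 9.15% lower). The phosphoglucomutase row named Pgm2 fell to 39.6% of control, a fall already known from these data when the members were chosen. The phosphofructokinase gene Pfkp, the transaldolase gene Taldo1 and the pyrophosphorylase gene Ugp2 rose to 123%, 109% and 115% of control. Under alternative settings described below, Taldo1 lost its call in 5 and Ugp2 in 7, while Pfkp kept its call wherever it was tested. The other 31 tested members did not pass, and the 7 members of lower glycolysis had log2 fold changes of -0.04 to 0.06.

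The table's names for the phosphoglucomutases differ from those of RefSeq for the same build, GRCm38.p6. The row called Pgm2 carries NCBI gene identifier 72157, which RefSeq lists as Pgm1 at 99929451 to 99987294 on chromosome 4, with Pgm2 among its older names. The row called Pgm1 carries identifier 66681, which RefSeq lists as Pgm2 at 64092919 to 64128355 on chromosome 5. By gene identity the row that fell is therefore the ortholog of human PGM1, the main glucose phosphoglucomutase. The other row is the ortholog of human PGM2, which acts mainly on pentose phosphates. The table's names are used below.

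The sequences just upstream of the start sites of the 4 members that passed are shown because these are the genes whose transcript levels differed between the groups. Each is the 250 bases before a RefSeq start in GRCm38.p6, read 5′ to 3′ on the gene's strand. For Ugp2, which has 2 listed starts, the upstream one is shown, and the Pfkp start used lies inside the listed extent of that gene. Capitals mark ACGTG (the core of the hypoxia response element), CACGTG (an E-box, which contains that core), CCAAT and GGGCGG (a GC box), searched on both strands. The windows are chr4:99929201-99929450 (plus strand) for Pgm2, chr13:6648772-6649021 (minus strand) for Pfkp, chr7:141391910-141392159 (plus strand) for Taldo1 and chr11:21371268-21371517 (minus strand) for Ugp2.
Pgm2: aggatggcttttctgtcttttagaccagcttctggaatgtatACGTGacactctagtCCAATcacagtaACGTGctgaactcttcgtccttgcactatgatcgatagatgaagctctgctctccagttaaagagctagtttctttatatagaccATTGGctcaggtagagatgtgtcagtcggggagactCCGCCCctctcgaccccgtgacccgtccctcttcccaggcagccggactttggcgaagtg
Pfkp: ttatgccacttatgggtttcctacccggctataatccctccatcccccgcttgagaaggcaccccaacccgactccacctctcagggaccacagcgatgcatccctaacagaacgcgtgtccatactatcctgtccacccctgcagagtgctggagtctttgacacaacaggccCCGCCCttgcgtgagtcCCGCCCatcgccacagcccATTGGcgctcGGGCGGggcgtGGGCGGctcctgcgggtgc
Taldo1: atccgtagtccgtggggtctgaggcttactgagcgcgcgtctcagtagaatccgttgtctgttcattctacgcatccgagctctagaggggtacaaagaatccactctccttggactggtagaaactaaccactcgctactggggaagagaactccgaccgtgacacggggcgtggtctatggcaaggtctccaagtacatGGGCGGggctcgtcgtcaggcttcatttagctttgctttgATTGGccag
Ugp2: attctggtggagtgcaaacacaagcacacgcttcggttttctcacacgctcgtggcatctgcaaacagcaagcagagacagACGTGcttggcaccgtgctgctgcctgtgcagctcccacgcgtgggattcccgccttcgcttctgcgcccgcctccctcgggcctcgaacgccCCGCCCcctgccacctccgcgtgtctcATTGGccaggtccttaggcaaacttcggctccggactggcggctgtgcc
All 4 printed windows held at least 1 CCAAT and 1 GC box, and the Pgm2 window held 2 copies of ACGTG. The window at the other listed Ugp2 start, not printed, held 0 CCAAT and 2 GC boxes. Over the 53 listed windows of the 36 members, ACGTG was found in 34%, against 16.6% of all 32851 windows of the same length. GGGCGG was found in 58.5% of the members' windows against 32.7% of all, CCAAT in 32.1% against 33.8%, and CACGTG in 7.55% against 6.02%. Windows of 1 gene can overlap, and a match describes letters, not a bound site. The 32851 windows were neither limited to tested genes nor matched for base composition. The members' higher shares of ACGTG and GGGCGG are therefore not shown to be particular to them.

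Total expected counts were 11560977 to 16059158 per control library and 12746051 to 14280962 per knockdown library. Rap1gds1 was at 15.5 to 17.0 CPM (counts relative to library size, scaled with TMM factors) in the controls and at 2.36 to 2.80 CPM in the knockdown, so each library matched its label. Along the principal component that carried 29.2% of the variance, knockdown replicate 4 lay at 20.9 and the other knockdown libraries at 8.86 to 9.58. Of 13 tubule epithelial markers 7 could be tested. Aqp1 was at 155 ± 6.07 CPM in the controls, Pax8 and Krt19 at 8.97 and 10.1 CPM, and Hnf4a had no count in any library and Cdh1 at most 5. The summed level of these markers was 175 to 189 CPM in the controls and 150 to 158 CPM in the knockdown, and Aqp1 carried the difference. It fell by 0.29 on the log2 scale (SE 0.04, edgeR adjusted p = 3.33e-07), while the other 6 tested did not pass (Epcam 0.30, Lrp2 0.39, Pax8 0.05, Krt19 -0.03, Krt8 -0.45 and Krt18 -0.68). Of leukocyte, endothelial, and fibroblast and pericyte markers, 2 of 7, 1 of 6 and 3 of 6 were tested. Summed leukocyte markers were 130 to 139 CPM in the controls and 111 to 123 CPM in the knockdown, endothelial markers 7.61 to 9.58 and 11.9 to 13.8, and fibroblast and pericyte markers 15.6 to 19.4 and 19.1 to 24.3. The leukocyte sum was nearly all Cd14, which fell by 0.36 (edgeR adjusted p = 1.12e-05), and Cd68, which did not pass. Adgre1 and Cd3e had no count and Ptprc at most 1. The endothelial sum was nearly all Flt1, which rose by 0.60 (edgeR adjusted p = 0.0001), with Pecam1, Cdh5, Kdr, Tek and Emcn at or near 0. Dcn and Pdgfrb rose by 0.49 and 0.36 (edgeR adjusted p = 0.0173 and 0.0174), and Cspg4 did not pass (0.37, SE 0.24). Dcn no longer passed when control replicate 2 was dropped, nor when knockdown replicate 4 was. Pdgfrb failed with replicate 3 of either group dropped, and in a fit to the authors' FPKM. Pdgfra, Lum and Rgs5 were not tested. Pdgfra had 0 to 9 counts per control library and 0 to 3 per knockdown library, and Lum 0 to 5 and 0. Rgs5 had at most 4 counts in a library. The part of these marker differences in the results below was not tested.

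Levels spanned a wide range. The authors' FPKM scale counts by gene length and library total. Their mean over all 8 libraries was highest for Gapdh, the glyceraldehyde phosphate dehydrogenase gene (4211 FPKM). The pyruvate kinase gene Pkm (1148 FPKM), the mutase gene Pgam1 (1030 FPKM) and the enolase gene Eno1 (860 FPKM) followed. The lowest were Pygl, the liver-type glycogen phosphorylase gene (0.166 FPKM), and the branching enzyme gene Gbe1 (0.634 FPKM). Together the 36 members took 1.71% to 1.77% of all counts of a control library and 1.69% to 1.75% of a knockdown library. These ranges overlap.

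**Figure D1:**
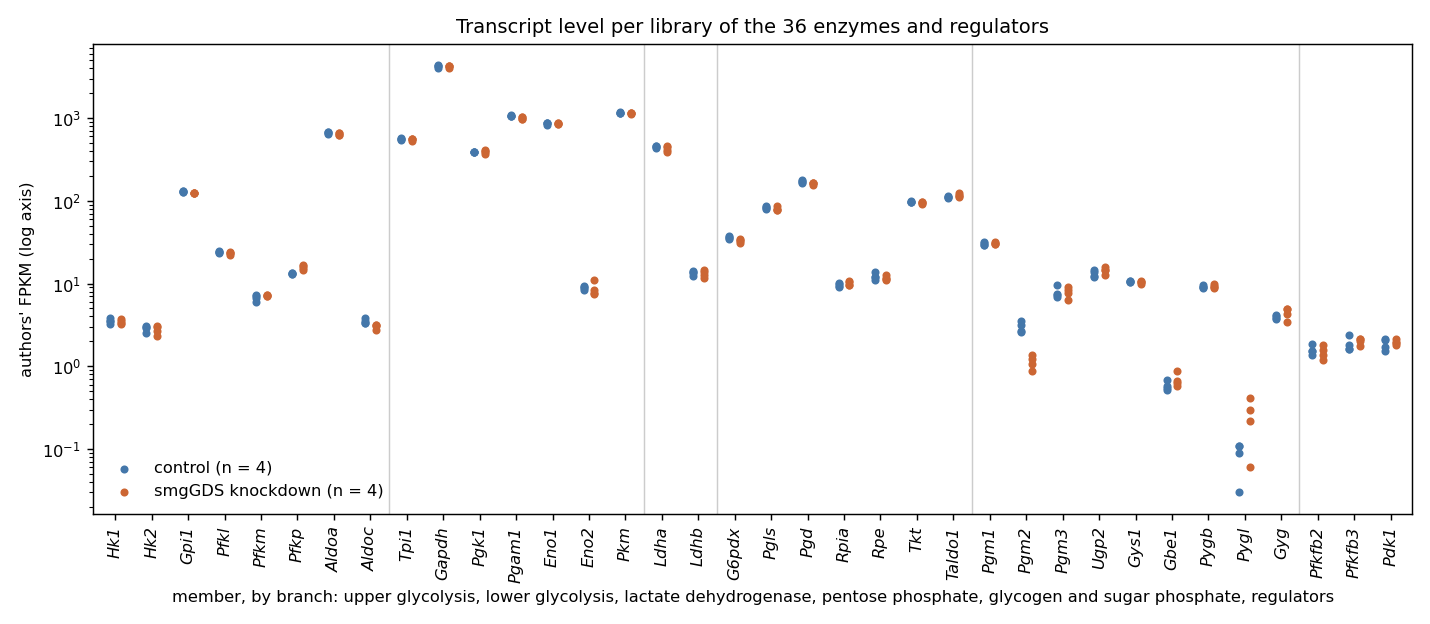
Authors' FPKM (log axis) of the 36 members in each of the 4 control and 4 knockdown libraries, ordered by branch, 1 point per library. Pgm2 is the tested member whose knockdown points lie well below its control points, and the points of most others coincide on this axis.

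Upper glycolysis takes glucose to triose phosphates. Of its 8 members 1 rose and none fell (12.5% called, against 20.2% of all tested genes), with a median log2 fold change of 0.01 (knockdown minus control, as throughout), against -0.00 over all tested genes. Pfkp encodes the platelet-type isoform of phosphofructokinase, which catalyses the committed step of glycolysis. Its level was 46.6, 45.9, 45.7 and 45.7 CPM in control replicates 1 to 4 and 57.6, 59.3, 56.2 and 53.6 CPM in knockdown replicates 1 to 4. Every knockdown library lay above every control library, and the controls were within 1 CPM of each other. The means were 46.0 ± 0.44 and 56.7 ± 2.4 CPM (± SD over 4 libraries per group), a log2 fold change of 0.30 (SE 0.05, edgeR adjusted p = 4.19e-05). Pfkp (identifier 56421, 6579874 to 6649060 on chromosome 13) has counts that are not whole, so some of its reads are shared with another feature and its value is less certain. It passed in all fits that included it, among them total-count scaling and FPKM.

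The liver-type Pfkl, the most abundant phosphofructokinase transcript, was at 83.4 ± 2.4 CPM in the controls and 84.0 ± 1.58 CPM in the knockdown (± SD over 4 libraries per group). Its log2 fold change was 0.01 with a 95% interval of -0.08 to 0.10. The muscle-type Pfkm was at 18.9, 20.1, 20.1 and 17.4 CPM in the controls and at 21.3, 20.7, 21.4 and 20.9 CPM in the knockdown. These groups do not overlap, yet Pfkm did not pass (difference 0.13 on the log2 scale with SE 0.08, adjusted p of 0.26 by edgeR). Of the 35 tested members 5 had groups that did not overlap, against 21.1% of all tested genes (11.5% with the knockdown above and 9.61% below). In 4 the knockdown lay above, and the 1 below was Pgm2, whose fall was known when the members were chosen.

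The remaining upper members gave no call. The hexokinase genes, which trap glucose in the cell by phosphorylation, were low, with Hk1 at 13.4 ± 0.85 and 13.8 ± 0.69 CPM and Hk2 at 15.4 ± 1.2 and 15.5 ± 1.83 CPM in controls and knockdown. The isomerase gene Gpi1 and the aldolase gene Aldoa had log2 fold changes of -0.01 and -0.01, with intervals of -0.07 to 0.05 and -0.07 to 0.04. Aldoc, the brain-type aldolase gene, was at 9.31 ± 0.75 and 8.33 ± 0.40 CPM (difference -0.16 on the log2 scale with SE 0.12, adjusted p of 0.366 by edgeR).

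Lower glycolysis harvests ATP and ends in pyruvate. It held the most abundant transcripts, and of its 7 members none passed. By edgeR 0 were called, against 20.2% of all tested genes, and 0 had an unadjusted p under 0.05. For the unadjusted cut, here and below, no share over all tested genes was computed. DESeq2 and limma voom, which called 17.9% and 19.8% of all tested genes, also called 0 of them. The median log2 fold change was 0.04 and the range -0.04 to 0.06. Gapdh, often used as a reference transcript, was at 4340, 4011, 4295 and 4227 FPKM in the controls and at 4249, 4014, 4255 and 4299 FPKM in the knockdown. The groups overlap throughout. On the CPM scale its log2 fold change was 0.05 with a 95% interval of -0.01 to 0.11 (edgeR adjusted p = 0.221). The phosphoglycerate kinase gene Pgk1 came nearest to the threshold in this branch, at 701, 696, 700 and 702 CPM in the controls and 748, 761, 718 and 687 CPM in the knockdown. Knockdown replicate 4 lay below all controls and the other 3 knockdown libraries above them. The log2 fold change was 0.06 (SE 0.03, edgeR adjusted p = 0.162) and became 0.09 (adjusted p = 0.0276) without knockdown replicate 4.

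Pgam1, which moves the phosphate group of phosphoglycerate, was at 1916 ± 38.5 and 1861 ± 63.8 CPM, a log2 fold change of -0.04 (SE 0.03, edgeR adjusted p = 0.295). It passed as lower when counts were scaled by library total alone (-0.10, adjusted p = 0.00246) and on FPKM (-0.10, adjusted p = 0.0209). Pkm was at 2745 ± 49.4 and 2823 ± 35.1 CPM and the triosephosphate isomerase gene Tpi1 at 876 ± 20.4 and 892 ± 19.3 CPM. Their intervals were -0.01 to 0.09 and -0.03 to 0.08 on the log2 scale. Neuron-type Eno2 was at 22, 22.8, 24.8 and 23.9 CPM in the controls and at 21.1, 22.9, 20.8 and 30.6 CPM in the knockdown. The value of knockdown replicate 4 was the highest of the 8, and the others overlapped (log2 fold change 0.03, SE 0.09).

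Eno1 shares nearly identical sequence with the retrotransposed copy Eno1b, and the deposited counts were split between both rows. Eno1 received 57.1% to 58.7% of their summed counts in every library. Summed before the test, they were at 2602 ± 92.2 CPM in the controls and 2689 ± 41.0 CPM in the knockdown (± SD over 4 libraries per group). The difference was 0.05 on the log2 scale (SE 0.03), with an edgeR adjusted p of 0.211. Eno1 alone gave the same 0.05.

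The lactate dehydrogenase genes, which interconvert pyruvate and lactate, gave no call (0 of 2 by edgeR, DESeq2 and voom, and 0 with an unadjusted p under 0.05). Over all tested genes these methods called 20.2%, 17.9% and 19.8%, in that order. Ldha was at 733, 725, 704 and 712 CPM in the controls and at 759, 731, 689 and 644 CPM in the knockdown, so the knockdown libraries fell on both sides of the controls. The log2 fold change was -0.03 (SE 0.04). Ldhb was at 17.1 ± 0.84 and 17.5 ± 1.82 CPM (log2 fold change 0.03, SE 0.09).

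The pentose phosphate pathway had 1 rise and no fall among 7 members (14.3% called, against 20.2% of all tested genes), with a median log2 fold change of 0.00. Taldo1, the transaldolase of its non-oxidative arm, was at 137, 139, 139 and 143 CPM in the controls and at 152, 148, 162 and 144 CPM in the knockdown. All knockdown libraries lay above the controls, knockdown replicate 4 by the smallest margin. The means were 139 ± 2.59 and 151 ± 7.41 CPM (± SD over 4 libraries per group). The difference was 0.12 on the log2 scale (SE 0.04), with an edgeR adjusted p of 0.0225. The gene (identifier 21351) spans 141392160 to 141402976 on chromosome 7. Its call was lost without control replicate 1 (adjusted p = 0.0762) or knockdown replicate 3 (adjusted p = 0.134). It was also lost under total-count scaling (0.06, adjusted p = 0.252) and on FPKM (0.06, adjusted p = 0.255).

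The transketolase gene Tkt, which works beside transaldolase, was at 311 ± 4.65 and 311 ± 7.57 CPM, with an interval of -0.06 to 0.06 on the log2 scale. The isomerase gene Rpia had a log2 fold change of 0.12 (SE 0.09) and the epimerase gene Rpe of 0.00 (SE 0.07). In the oxidative arm, which yields NADPH, G6pdx was at 92.8, 95.4, 90.7 and 89.7 CPM in the controls and at 90.2, 91.9, 88 and 82.5 CPM in the knockdown. The groups overlap, with knockdown replicate 4 the lowest (difference -0.06 on the log2 scale with SE 0.04, adjusted p of 0.343 by edgeR). The dehydrogenase gene Pgd gave -0.04 (SE 0.03), which passed under total-count scaling (-0.10, adjusted p = 0.0189), and the lactonase gene Pgls gave -0.01 (SE 0.05).

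**Figure D2:**
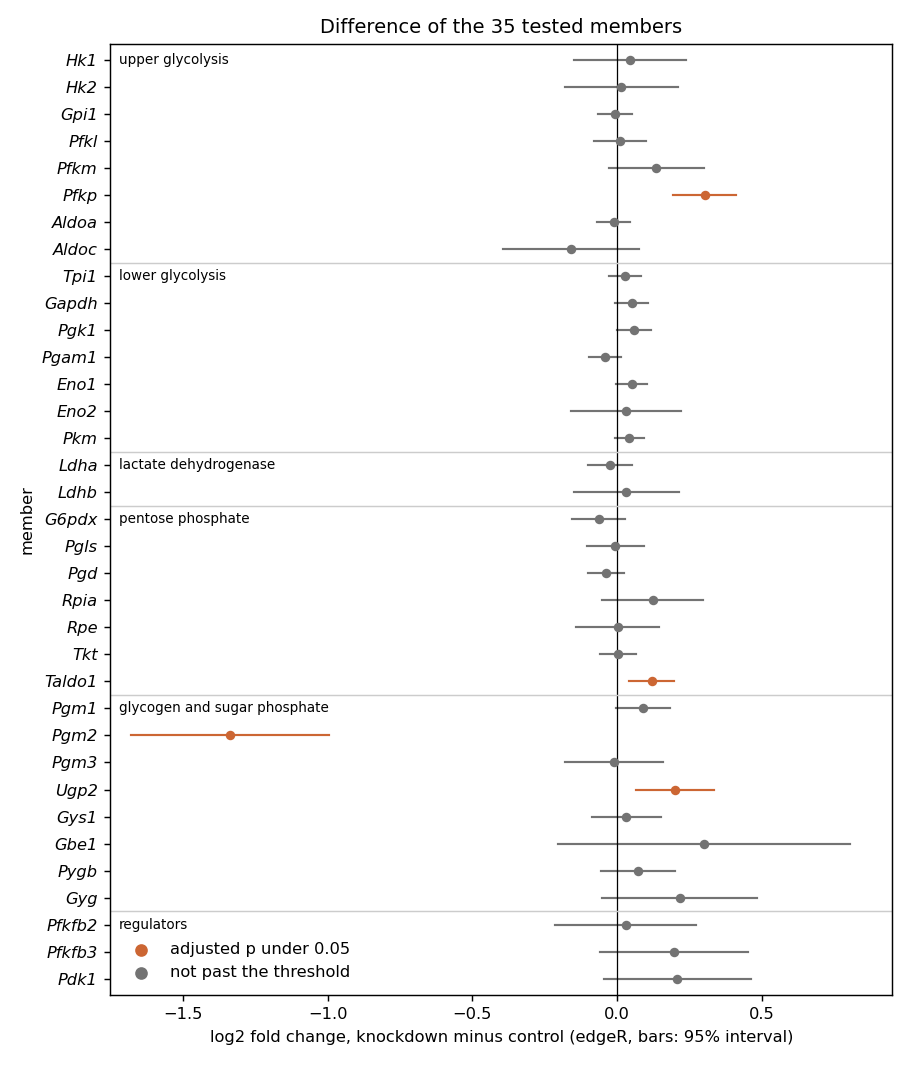
Log2 fold change, knockdown minus control, of the 35 tested members by branch, with 95% intervals as bars; coloured points passed an adjusted p under 0.05. Pgm2 at -1.34 stands apart on the left, Pfkp at 0.30, Ugp2 at 0.20 and Taldo1 at 0.12 lie right of 0, and the remaining intervals include 0.

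Glycogen and sugar phosphate enzymes had 1 rise and 1 fall among 8 tested of 9 members (25% called, against 20.2% of all tested genes, the fall being the one known when members were chosen), with a median log2 fold change of 0.08. The controls, in replicate order, had 131, 99, 87 and 85 Pgm2 counts, and the knockdown libraries 45, 37, 26 and 32. In CPM these were 8.06, 5.97, 6.07 and 7.27 against 3.21, 2.91, 2.08 and 2.56. The highest knockdown library lay well below the lowest control. The means were 6.84 ± 1.00 and 2.69 ± 0.48 CPM (± SD over 4 libraries per group). The difference was -1.34 on the log2 scale (SE 0.17), with an edgeR adjusted p of 1.04e-07. The 95% interval for the remaining level was 31.2% to 50.2% of control. In FPKM the gene was at 2.98 ± 0.43 and 1.13 ± 0.21. It passed in every fit that tested it, including each fit with a library left out. Its mean level was too low for a filter at 5 CPM, under which it was not tested. The fall in Pgm2 was already known from these data when the members were chosen, so it is a description and not independent evidence.

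Pgm1, its partner row, was at 71.9, 68.4, 69.5 and 72.4 CPM in the controls and at 76.6, 72.4, 75.5 and 75.4 CPM in the knockdown. The groups meet at 72.4 CPM without overlapping, and the gene did not pass (difference 0.09 on the log2 scale with SE 0.05, adjusted p of 0.185 by edgeR). Pgm3, which acts on acetylglucosamine phosphate in the hexosamine pathway, was at 21.5 ± 1.04 and 21.4 ± 2.51 CPM (log2 fold change -0.01, SE 0.08). Pgm3 has counts that are not whole, as do Pfkp, Pfkm, Gapdh, Eno1, Gys1 and Rpe among the members.

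Ugp2 makes UDP-glucose, the donor for glycogen synthesis and for glycosylation. It was at 33.2, 36.6, 39.6 and 33.8 CPM in the controls and at 41.9, 40.9, 36.6 and 45.1 CPM in the knockdown. The groups overlap, since knockdown replicate 3 lay below control replicate 3. The means were 35.8 ± 2.97 and 41.1 ± 3.49 CPM (± SD over 4 libraries per group). The difference was 0.20 on the log2 scale (SE 0.07), with an edgeR adjusted p of 0.0293. The gene (identifier 216558) spans 21321126 to 21371267 on chromosome 11. Its call was lost without control replicate 1 (adjusted p = 0.13), control replicate 4 (0.0859), knockdown replicate 1 (0.0717) or knockdown replicate 4 (0.132), under total-count scaling (0.123) and on FPKM (0.231).

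The enzymes that build and degrade the glycogen particle gave no call. The synthase gene Gys1 was at 38.2 ± 0.47 and 39.1 ± 1.45 CPM, with an interval of -0.09 to 0.15 on the log2 scale. The phosphorylase gene Pygb was at 34.6 ± 1.13 and 36.4 ± 1.80 CPM (log2 fold change 0.07, SE 0.06). Gyg, encoding the primer protein glycogenin, was at 6.64 ± 0.31 and 7.71 ± 1.26 CPM (0.21, SE 0.13). Gbe1 was low, with 20 to 37 counts per library (0.30, SE 0.25), and a difference of this size was not resolvable at this depth. Pygl had 5, 5, 1 and 3 counts in the controls and 9, 11, 2 and 15 in the knockdown and was removed by the expression filter. Its highest values were in 3 knockdown libraries, and the groups overlap. With no filter it passed as higher (log2 fold change 1.56, SE 0.57, edgeR adjusted p = 0.0445 over 16372 genes), on at most 15 counts in a library.

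**Figure D3:**
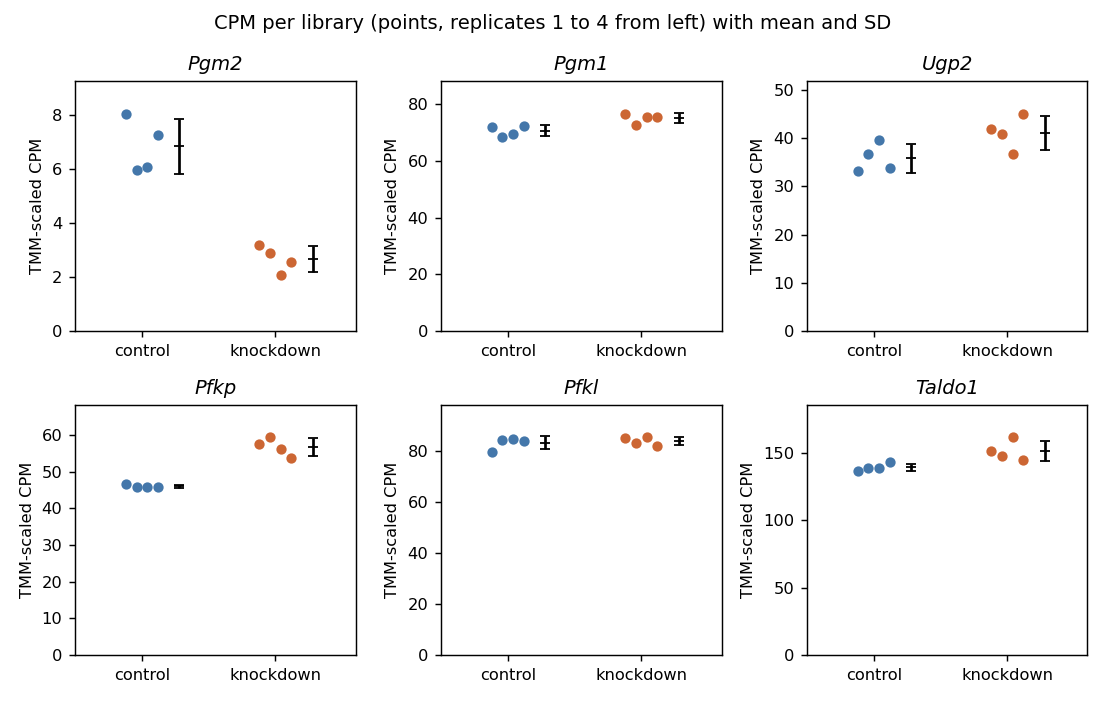
TMM-scaled CPM (axes from 0) of the 4 members that passed, of Pfkl and of the Pgm1 row. Each panel has 1 point per library with mean and SD (n = 4). Pgm2 lies at 2.08 to 3.21 CPM in the knockdown against 5.97 to 8.06 CPM in the controls, Pfkp and Taldo1 separate upward by smaller amounts, and Ugp2 overlaps.

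The 3 regulators set the flow into and out of glycolysis and gave no call (0 by edgeR, DESeq2 and voom, with 0 at an unadjusted p under 0.05). The shares called over all tested genes were 20.2%, 17.9% and 19.8%, in that order. Pfkfb2 and Pfkfb3 set the level of a fructose bisphosphate that activates phosphofructokinase, and Pdk1 restrains pyruvate dehydrogenase. Pfkfb3 was at 7.63, 10.7, 6.98 and 8.47 CPM in the controls and at 8.28, 10.1, 10.7 and 9.75 CPM in the knockdown, with overlapping groups (difference 0.20 on the log2 scale with SE 0.13, adjusted p of 0.301 by edgeR). Pdk1 was at 7.54 ± 1.12 and 8.70 ± 0.50 CPM (0.21, SE 0.13, edgeR adjusted p = 0.264). Pfkfb2 gave 0.03 (SE 0.12).

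The precision of these estimates differed with level. For 13 of the 35 tested members the 95% interval lay within a 10% change either way (Gpi1, Pfkl, Aldoa, Tpi1, Gapdh, Pgk1, Pgam1, Eno1, Pkm, Ldha, Pgls, Pgd and Tkt). For 27 it lay within a 25% change, Taldo1 among them. The median absolute log2 fold change was 0.04 over the tested members and 0.12 over all tested genes. All tested genes were not matched to the members by level, and the part of level in this difference was not tested. Estimates this small depend on the scaling. TMM factors were 1.01 to 1.03 in the controls and 0.974 to 0.987 in the knockdown, without overlap. With library totals in place of TMM factors the members' median moved from 0.03 to -0.03, 1 member rose and 3 fell. Calls over all genes changed from 1285 higher and 1059 lower to 766 higher (6.62%) and 1951 lower (16.9%), or 23.5% in all, and their median moved to -0.06. On FPKM, which also scale by library total, the calls were 598 higher (5.17%) and 1508 lower (13%), or 18.2% in all. Without knockdown replicate 4, 3 members rose (Pfkp, Pgk1 and Taldo1) and 1 fell (Pgm2), against 15.7% of all genes tested in that fit.

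Shares of isozymes within a family do not depend on the scaling of a library. In FPKM, Pfkp made up 30.8%, 29.3%, 29.7% and 30.5% of phosphofructokinase transcripts in the controls and 34.3%, 35.6%, 33.6% and 33.6% in the knockdown. The groups do not overlap, and the share of Pfkl was lower, at 53.6% to 55.8% in the controls and 49.3% to 50.4% in the knockdown. Pfkm stayed between 13.8% and 16.2% in all libraries. By gene identity the Pgm1 and Pgm2 rows differ in main substrate, so their shares do not describe isozymes of 1 step. Of these rows together, Pgm2 made up 10.2%, 8.2%, 8.18% and 9.11% in the controls and 4.08%, 3.98%, 2.77% and 3.40% in the knockdown. These groups also do not overlap. The Hk2 share of the hexokinase genes was 42.1% to 48.4% in the controls and 41.8% to 47.5% in the knockdown. Ldhb made up 2.76% to 2.97% and 2.47% to 3.49% of lactate dehydrogenase transcripts, and Aldoc at most 0.56% of aldolase transcripts. Shares of Pfkp and Pgm2 follow from their calls above and carry no test of their own.

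**Figure D4:**
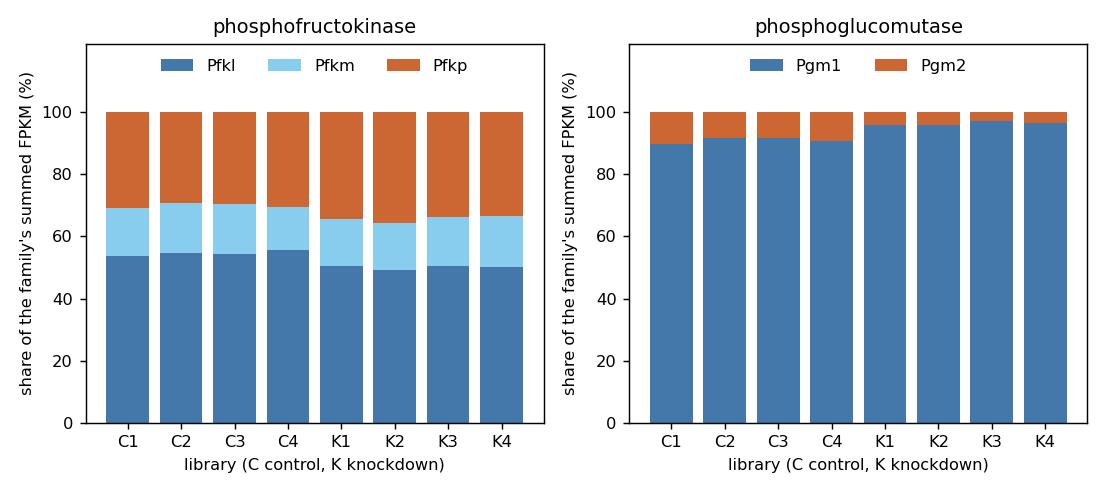
Share of each gene in the summed FPKM, in percent, for the phosphofructokinase genes and for the Pgm1 and Pgm2 rows. Each library has 1 bar (C control, K knockdown). The Pfkp segment covers 29.3% to 30.8% of the control bars and 33.6% to 35.6% of the knockdown bars, and the Pgm2 segment 8.18% to 10.2% and 2.77% to 4.08%.

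Other genes of the same pathways were examined in 7 lists. Among 25 further isozymes and branch enzymes 13 were tested and edgeR called 0, against 20.2% of all tested genes. At an unadjusted p under 0.05 there were 3, and no share over all tested genes was computed for that cut. Voom, which called 19.8% of all tested genes, called 0 of the 13. DESeq2, which called 17.9%, called 0 of the 9 to which it gave an adjusted p. Pklr, the pyruvate kinase gene of liver and red blood cells, had no count in any library. Pgm2l1, which makes glucose bisphosphate and is a relative of the phosphoglucomutases, was at 5.11, 4.34, 4.47 and 5.13 CPM in the controls and at 3.42, 4.56, 3.12 and 3.83 CPM in the knockdown. It did not pass (difference -0.35 on the log2 scale with SE 0.17, adjusted p of 0.15 by edgeR). Of 8 gluconeogenesis genes 4 were tested and edgeR, DESeq2 and voom called 0, against 20.2%, 17.9% and 19.8% of all tested genes. At an unadjusted p under 0.05 there were 0, and Pck1 and Fbp1 had no count.

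Proteins that control glycogen turnover held 3 rises and 1 fall among 11 tested, 36.4% against the 20.2% of all tested genes. DESeq2, which called 17.9% of all tested genes and gave 2 of the 11 no adjusted p, called 2. Voom, which called 19.8% of all tested genes, called 4. Ppp1r3c, a glycogen-targeting subunit of protein phosphatase, fell from 1.88 ± 0.38 to 0.85 ± 0.17 CPM (difference -1.14 on the log2 scale with SE 0.30, adjusted p of 0.00487 by edgeR). Phka1, a regulatory subunit of phosphorylase kinase, was at 3.08, 3.08, 2.93 and 3.42 CPM in the controls and at 4.64, 3.69, 5.21 and 5.59 CPM in the knockdown. It rose by 0.62 (SE 0.18, edgeR adjusted p = 0.00969), a call not made on FPKM (adjusted p = 0.0612). Both genes were low. Stbd1, which tethers glycogen to membranes, rose by 0.13 (SE 0.04, edgeR adjusted p = 0.0226). Its call was lost without control replicate 1 or 3 or knockdown replicate 2, under total-count scaling and on FPKM.

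For pyruvate entry into mitochondria 1 gene rose and 1 fell among 13 (15.4%, below the 20.2% of all tested genes). The kinase gene Pdk4, a relative of Pdk1, was at 16.5, 17.1, 15.2 and 10.9 CPM in the controls and at 10.4, 10.7, 9.05 and 7.91 CPM in the knockdown. Control replicate 4 lay just above the highest knockdown library. It fell by 0.66 on the log2 scale (SE 0.12, edgeR adjusted p = 7.96e-05). Dld, the dihydrolipoamide dehydrogenase, rose by 0.12 (SE 0.04, edgeR adjusted p = 0.0233) and lost that call without control replicate 1 or 3 or knockdown replicate 1 or 2, under total-count scaling and on FPKM.

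Of 11 genes for glucose and lactate transporters and their chaperone Bsg, 5 were tested and 1 fell (20%, near the 20.2% of all tested genes). Slc16a3, a lactate exporter, was at 9.41, 11.6, 11.7 and 11.8 CPM in the controls and at 9.85, 7.62, 9.29 and 7.11 CPM in the knockdown. The groups overlap through control replicate 1 (difference -0.39 on the log2 scale with SE 0.12, adjusted p of 0.0171 by edgeR), and the call was lost without knockdown replicate 2 or 4. The glucose transporter Slc2a1 was at 15.4 to 20.2 CPM and 15.7 to 18.5 CPM (-0.06, SE 0.09).

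A further list held hypoxia-inducible factors, their regulators, sugar-responsive factors and also target genes of these factors, such as Vegfa, Car9 and Txnip. It had 2 falls and no rise among 18 tested (11.1%, below the 20.2% of all tested genes). Egln3, a prolyl hydroxylase, fell by 0.33 (SE 0.10, edgeR adjusted p = 0.0165), a call lost without control replicate 1 or knockdown replicate 4. Vhl, a ubiquitin ligase subunit, fell by 0.18 (SE 0.06, edgeR adjusted p = 0.03), and lost that call without any of control replicates 1 to 3 or knockdown replicate 4. Hif1a gave 0.04 (SE 0.04) and Vegfa 0.06 (SE 0.04), neither past the threshold.

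Hexosamine and nucleotide sugar enzymes, fed by the same sugar phosphates, held 3 rises and 1 fall among 18 tested (22.2%, near the 20.2% of all tested genes). Gnpda1, which returns glucosamine phosphate to glycolysis, fell from 75.9 ± 2.18 to 63.2 ± 3.40 CPM (difference -0.26 on the log2 scale with SE 0.05, adjusted p of 9.17e-05 by edgeR). Gnpnat1, an acetyltransferase that makes acetylglucosamine phosphate, rose by 0.20 (SE 0.04, edgeR adjusted p = 0.000772) but not on FPKM (adjusted p = 0.0799). Ogt, which attaches acetylglucosamine to proteins, rose by 0.23 (SE 0.07, edgeR adjusted p = 0.0161) and lost that call without control replicate 1 or 3 or knockdown replicate 4, under total-count scaling and on FPKM.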

How the data were processed

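The authors deposited a count, 1 value for each gene and library and in part fractional, together with their FPKM, per the file headers. The file headers call these columns counts and do not say how reads were assigned. They are treated here like expected counts, an inference from the deposited values, which are not all whole, and from RSEM among the tools named for the authors' processing. The submitters' processing notes name, with neither role nor order, RSEM, fastp 0.18.0, HISAT2 2.4, Bowtie2 2.2.8, StringTie 1.3.1, edgeR and DESeq2, and the build GRCm38.p6. The sources used here give neither a strand setting nor an annotation release. Poly(A) RNA was enriched on oligo(dT) beads, per the labels' protocols.

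Expected counts were rounded and tested with edgeR 4.0.16 (R 4.3.3): default expression filter, TMM factors, robust quasi-likelihood fit, a two-sided F-test of the group term with no covariate, Benjamini-Hochberg adjustment over 11576 genes, threshold 0.05. Each standard error is the fold change divided by the square root of F. The procedure was tested on simulated data. A value was called whole within 1e-09, and 3 counts correspond to 0.181 to 0.257 CPM, which covers counting error only. Names and coordinates came from RefSeq by gene identifier (36 of 36 members), and start-site sequences from RefSeq for GRCm38.p6. Library pairs within a group differed by more than sampling noise (chi-square per degree of freedom 1.94 to 3.98).

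The members and lists were chosen with earlier results of these data known. All members are accounted for. Values per library are given for those past the threshold, for their isozyme or same-family partners and for the extremes of level. Others so shown were chosen after their values were seen. Of each list of other pathway genes, up to 3 called members with the smallest adjusted p are named. Other genes named there, and the marker genes, were chosen after their values were seen. In the hexosamine list 1 symbol had no match.

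Alternatives were other size factors, library totals, DESeq2 1.42.0, limma 3.58.1 voom, limma on log2(FPKM + 0.5) of the same genes, other filters, whole counts only, a threshold of 0.01, a replicate term and each library left out. The Eno1 sum was added after seeing the data.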

Additional observations from a re-analysis of the deposited data

Results flagged for a closer look

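In 72 groups of 4 libraries (36 members in each condition) 3 held a library whose gap to the nearest other exceeded Dixon's 95% critical value for the gap as a share of the group's range, and chance gives about 1 in 20. Pfkl was at 79.86 CPM in control replicate 1, against 84.18 to 85.02 CPM in the other controls. Eno1 was at 1531 CPM in knockdown replicate 2, against 1562 to 1567 CPM in the other knockdown libraries. Pgls was at 78.18 CPM in knockdown replicate 3, against 71.03 to 71.8 CPM in the others. None of the 3 genes passed the threshold with that library included or, for these 3 libraries, left out.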

How the results depend on the processing

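Of 656 member estimates under alternatives 639 kept their side of the threshold, 12 lost a call and 5 gained one. In 63 the sign changed, 13 of them with library totals and 14 on FPKM, in each case for a member not called either way. In the main fit 3 members were higher and 1 lower, and 7 other pathway genes were higher and 6 lower. Over the whole table that fit gave 1285 genes higher and 1059 lower. Scaling by library total gave 1 member higher and 3 lower (Pgam1, Pgm2 and Pgd), 2 other pathway genes higher and 15 lower, and 766 genes higher and 1951 lower over the whole table. Limma on log2(FPKM + 0.5) gave 1 member higher and 2 lower, 0 other pathway genes higher and 13 lower, and 598 genes higher and 1508 lower over the whole table. The members' median log2 fold change was -0.0256 with library totals and -0.0297 on FPKM. A threshold of 0.01 gave 1 member higher, 2 other pathway genes higher and 3 lower, and 825 genes higher and 580 lower. With no filter 10 other pathway genes were lower. Requiring a mean of 5 CPM left 0 members lower, because Pgm2 was no longer tested. Leaving out each library gave 1 to 3 members higher (1 without control replicate 1) and a members' median of 0.0267 to 0.0481. Among other pathway genes it gave 2 to 8 higher (2, 3 and 4 without control replicates 1 and 3 and knockdown replicate 4) and 4 to 10 lower (10 without knockdown replicate 3). The Aldoc share differed by -0.09 percentage points from counts. The causes of these shifts were not tested.

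Correlations of deviations between libraries of equal replicate number were low, at -0.036 to 0.083. Control replicates 1, 2 and 4 each correlated best with the knockdown library of the same number, and control replicate 3 with knockdown replicate 4. Whether replicate numbers pair the libraries cannot be decided from these values. A replicate block gave 4 members higher (Gapdh added) and 1 lower, 12 other pathway genes lower, and 1425 and 1235 genes higher and lower over the table. Low counts limit Pygl, Gbe1 and Ppp1r3c.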
